A study of Rattus norvegicus with 84 samples.

Results

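Extinction was compared with the HC condition in the nucleus accumbens core of saline-treated rats. The 14 libraries were chosen by their titles, which give the subregion Core and the group Ext_Sal (7 libraries) or HC_Sal (7 libraries), out of 84 libraries in the series and 42 from Core. Ext stands for extinction in the terms of the study. HC commonly stands for home cage in this field, which the labels do not state. Both groups were wild-type Long-Evans rats of the saline arm, so the comparison holds no cocaine-treated sample. Age, sex, the time between the last session and tissue collection, and whether each library came from a separate animal are not stated in the labels. The p-values therefore measure only the spread between these samples. Titles also give a series, which is 1 or 2 (numbered libraries) or F, and in each group series 1 has 2 libraries, series 2 has 3 and series F has 2.

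The nucleus accumbens core is a striatal region that links motivation to action. Most of its neurons are GABA-releasing projection neurons, which carry either the D1 or the D2 dopamine receptor. In extinction, an animal is returned to a place or a response that no longer brings the reward. The rats compared here were of the saline arm, so no cocaine reward was withdrawn from them. Below, extinction names the group Ext_Sal and not a shown loss of a reward. Immediate early genes are transcribed within minutes of neuronal activity, with no need for new protein. Some of them encode transcription factors (the Fos, Egr and Nr4a families, Npas4) and others encode proteins that act at synapses or in signalling (Arc, Bdnf). They are widely used as a readout of recent activity.

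The libraries held 14.8 to 19.9 M (mega) counts in Ext_Sal and 14.1 to 22.5 M in HC_Sal. Levels are given as log2 CPM: each count is divided by its library's normalised total and put on a log2 scale. They are not corrected for gene length, so they compare libraries for 1 gene and not genes with each other. Markers of the labelled tissue were present in all 14 libraries: Ppp1r1b, the DARPP-32 gene of striatal projection neurons, stood at 7.70 log2 CPM or above, Drd2 at 6.45 or above and Drd1 at 5.20 or above. Olfactory and vomeronasal receptor genes, which brain tissue is not known for expressing, gave a background level per library (log2 CPM summed over 2033 genes). It ran from 6.29 (library 3-F) to 10.58 with a median of 10.22 in Ext_Sal, and from 7.91 (library 15-F) to 10.52 with a median of 9.99 in HC_Sal. The groups overlapped, and their means differed by -0.50 (exact permutation test over 3432 arrangements, two-sided, p = 0.555), or by -0.02 without 3-F. The first principal component of the 1000 most variable genes held 89.2% of their variance. It was below 0 in the 5 libraries with a background level under 9 (1-5, 1-6, 3-F, 1-11 and 15-F) and above 0 in the other 9, with 3-F far out at -131.3. Results below come from a fit with the series as covariate, and where named, from one with the background level as a further covariate.

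No gene passed the test between extinction and HC. Of 30076 genes tested with edgeR's quasi-likelihood test, 0 were called at an adjusted p under 0.05 (0%), and the lowest adjusted p rounded to 1. At an unadjusted p under 0.05 there were 37 genes (0.123%), 19 higher (0.0632%) and 18 lower (0.0598%) in extinction. DESeq2's Wald test also called 0, with 51 at an unadjusted p under 0.05. With the background level as a further covariate, edgeR called 0 of 31381 genes, and 1029 (3.28%) had an unadjusted p under 0.05, of which 149 (0.475%) were higher and 880 (2.80%) lower. The median log2 fold change over all genes was -0.03 in the first fit and -0.05 in the second. For the 21180 genes with a mean level of at least 1, the median standard error of a log2 fold change was 0.22 in the first fit and 0.10 in the second. For independent genes with no difference, 1504 would be under 0.05, so the first fit gave far fewer low p-values than that. The differences named below are estimates that did not pass the adjusted test.

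Promoter sequence is shown for Nr4a1 and Egr2, chosen from the immediate early list because their RefSeq windows hold short motifs of activity-regulated promoters. RefSeq (build GRCr8) gave promoter windows for 26 of the 33 listed genes, 31 windows in all because Bdnf has several. Capitals mark the CREB half-site (TGACG, or CGTCA on the opposite strand) and the CArG box bound by serum response factor. Each line holds the 250 bases upstream of the annotated start.
Nr4a1, chr7:134259888-134260137, plus strand: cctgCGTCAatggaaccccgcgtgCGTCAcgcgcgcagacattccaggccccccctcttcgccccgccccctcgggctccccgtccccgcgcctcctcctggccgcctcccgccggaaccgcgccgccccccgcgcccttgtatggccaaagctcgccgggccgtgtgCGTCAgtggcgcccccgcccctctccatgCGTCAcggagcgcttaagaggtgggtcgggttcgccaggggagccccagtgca
Egr2, chr20:21054442-21054691, minus strand: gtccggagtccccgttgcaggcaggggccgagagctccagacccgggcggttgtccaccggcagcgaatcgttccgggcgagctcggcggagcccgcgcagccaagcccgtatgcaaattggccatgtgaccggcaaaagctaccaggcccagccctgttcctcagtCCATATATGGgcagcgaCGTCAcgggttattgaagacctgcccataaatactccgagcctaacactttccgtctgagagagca
The Nr4a1 window holds 4 half-sites, starting at -246, -226, -82 and -53 from the transcription start. The Egr2 window holds 1 CArG box at -83 and 1 half-site at -66. A CREB half-site was found on either strand in 16 of the 31 windows of immediate early genes (51.6%) and in 18.2% of all 33469 windows of this length. The full CREB site (TGACGTCA, whose letters contain both half-sites) was in 6 of the 31 (19.4%) and in 1.59% of all windows, and a CArG box in 3 of the 31 (9.68%) and in 1.5%. The AP-1 site (TGACTCA or TGAGTCA) was in 0 of the 31 and in 4.05% of all. These are letter matches in a window and no measure of binding.

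Most immediate early genes had negative estimates, meaning lower levels in extinction. All 33 listed genes were tested: 25 estimates were negative and 8 positive, with a median of -0.20 against -0.03 over all genes, and 0 were called. Over all genes 16883 of 30076 estimates were negative. Against the 0.0598% of all genes that were lower at an unadjusted p under 0.05, the list had 1 such member, Nr4a3. With the background level as covariate, 31 of 33 estimates were negative, with a median of -0.31 against -0.05 over all genes. Negative estimates were then common: 20875 of all 31381 genes had one. So did 12 of 12 shared projection neuron markers (median -0.12), 14 of 14 myelin markers (-0.29) and 83 of 87 ribosomal protein genes (-0.10). The mural and fibroblast markers were positive for 13 of 13. In that fit 18 of 33 were lower and 0 higher at an unadjusted p under 0.05, against 2.80% and 0.475% of all genes, and again 0 were called. The list was chosen with earlier results of these data known, so these counts describe it and are not a test of it.

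**Figure D1:**
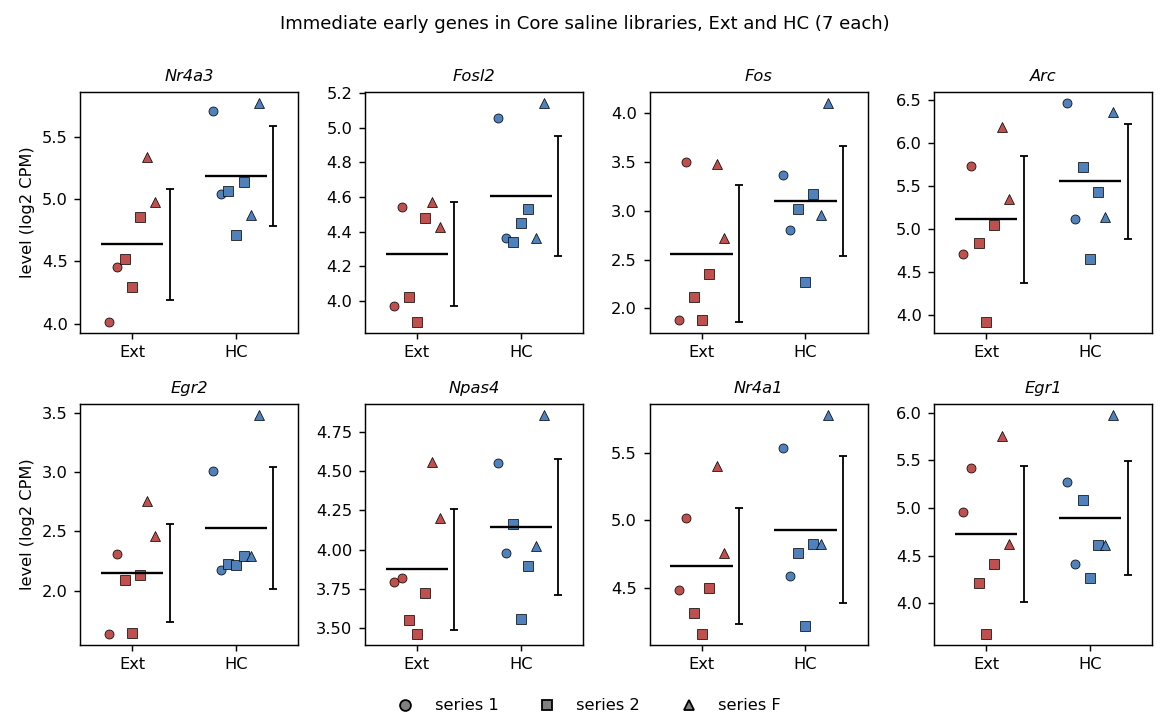
Levels (log2 CPM) of 8 immediate early genes in the 7 Ext and 7 HC libraries of Core saline. Each point is a library, its shape gives the series, the line is the group mean and the bar beside it 1 SD. The means of all 8 genes are lower in Ext and the groups overlap in each, as for Nr4a3 with 4.01 to 5.34 in Ext and 4.71 to 5.78 in HC.

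Among the transcription factors, Nr4a3 had the lowest p of any named gene. Nr4a3, an orphan nuclear receptor, stood at 4.01 to 5.34 log2 CPM with a median of 4.52 in extinction, and at 4.71 to 5.78 with a median of 5.07 in HC. The lowest 4 libraries were all from extinction and the highest 2 were HC libraries 15-F and 1-11, yet the groups overlapped. The log2 fold change was -0.57 ± 0.20 (SE), 1.48-fold lower, with a 95% interval of -1.004 to -0.134, and 6 of 7 extinction libraries lay below the HC mean (edgeR, unadjusted p = 0.0143, adjusted p = 1). Nr4a1, of the same family, was at -0.31 ± 0.20, with levels of 4.16 to 5.40 in extinction and 4.22 to 5.78 in HC.

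The Fos family gave estimates of the same sign. Fos, which pairs with Jun proteins in the AP-1 factor, stood at 1.88 to 3.502 with a median of 2.36 in extinction, and at 2.27 to 4.11 with a median of 3.02 in HC. In extinction 4 of the 7 libraries were at or under 2.36, where HC had a single one, 2-11. Its log2 fold change was -0.53 ± 0.28, with a 95% interval of -1.14 to 0.08. Fosl2, a related AP-1 member, ran from 3.88 to 4.57 in extinction and from 4.34 to 5.14 in HC. All 7 extinction libraries were below the HC mean of 4.61, which the HC libraries 15-F and 1-11 raised, and the estimate was -0.35 ± 0.17. For Fosb it was -0.32 ± 0.22, with 6 of 7 extinction libraries below the HC mean.

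Egr2, a zinc finger factor whose promoter is shown above, stood at 1.64 to 2.76 in extinction and 2.17 to 3.48 in HC (-0.42 ± 0.22; 6 of 7 below the HC mean). Egr1, of the same family, was at -0.20 ± 0.27, with 95% limits of -0.79 and 0.39. Npas4, a factor induced by calcium entry into neurons, ran from 3.46 to 4.56 in extinction and from 3.55 to 4.86 in HC, an estimate of -0.30 ± 0.16. In each of these the groups overlapped, and the highest extinction library was 3-F and the highest HC library 15-F, the libraries with the lowest background level of their groups.

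Of the genes that act at synapses, Arc, which regulates glutamate receptor traffic, stood at 3.92 to 6.18 with a median of 5.04 in extinction. In HC it ran from 4.65 to 6.46 with a median of 5.43. Its log2 fold change was -0.48 ± 0.31, and 5 of 7 extinction libraries lay below the HC mean. Bdnf, a secreted neurotrophin, was at -0.47 ± 0.53. Its group medians had the opposite order, 3.18 in extinction and 3.12 in HC, and library 3-F stood far below the rest of its group at -1.91. The next lowest extinction libraries were 1-6 and 1-5, also of low background, at 1.23 and 1.64.

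Libraries of lower background level tended to have a higher sum of the immediate early genes, and of several other lists. The summed level of the 33 genes ran from 8.84 to 10.30 log2 CPM in extinction with a median of 9.24, and from 9.11 to 10.34 in HC with a median of 9.48. The highest value of each group was in the library of lowest background, 3-F in extinction and 15-F in HC. This was not particular to the list. The same libraries were highest for the summed shared projection neuron markers, ribosomal protein genes, mitochondrially encoded genes and all genes together, among others. For the endothelial, mural and cortical glutamatergic lists, among others, different libraries were highest. With the background level as covariate the estimates were -0.62 ± 0.16 for Nr4a3, -0.69 for Fos, -0.61 for Arc and -0.41 for Nr4a1, all at an adjusted p that rounds to 1. Tiparp, a mono-ADP-ribosyltransferase, and Jun, the partner of Fos, had the lowest p of the list in that fit and are named after their values were seen: -0.39 ± 0.08 and -0.37 ± 0.09, against -0.26 ± 0.18 and -0.15 ± 0.26 without it. The part of the background in these differences was not tested beyond this covariate.

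**Figure D2:**
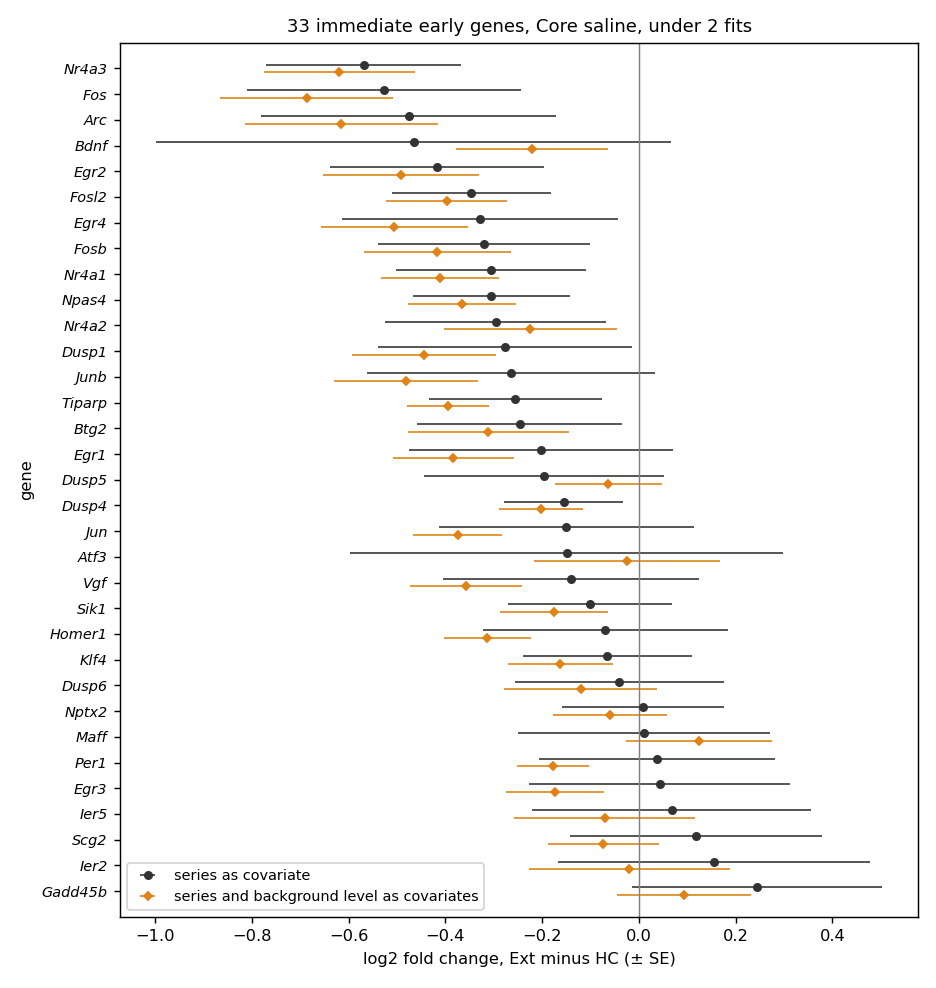
Log2 fold changes (Ext minus HC, horizontal axis) of the 33 immediate early genes with their standard errors, from the fit with the series as covariate (circles) and with the background level added (diamonds). The median moves from -0.20 to -0.31 and the bars shorten.

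Within series 1 the median of the immediate early genes was -0.10 (19 of 33 negative), against -0.06 over all genes. Series F gave -0.06 (20 of 33), against -0.03 over all genes. In these series the list lay near all genes, while series 2 gave it -0.31 (29 of 33) against 0.01 over all genes. Nr4a3 estimates were -1.22, -0.41 and -0.17 in that order. For Fos they were -0.27, -0.77 and -0.43, and for Arc -0.68, -0.67 and 0.03. Background levels in series 1 were 8.51 and 7.76 in extinction and 8.72 and 9.99 in HC. In series 2 all 6 libraries lay between 9.87 and 10.58, and in series F each group had 1 library of low and 1 of high background. Series F gave the estimates nearest to 0 for Nr4a3 and Arc, though not for Fos, and for Fosb the one furthest from 0 (-0.45). Whether background plays a part in these differences between series was not tested. Leaving out 1 library at a time moved the median of the list between -0.28 (without HC library 1-12) and -0.12 (without HC library 15-F). Single genes moved further. Without 15-F Fosb was at -0.13, Egr1 at -0.04 and Egr2 at -0.27, and without HC library 1-11 Arc was at -0.29 and Nr4a1 at -0.19. Without 3-F Egr1 was at -0.36, Jun at -0.39 and Bdnf at -0.21. Without 11-F Bdnf was at -0.88, Tiparp at -0.16 and Jun at -0.04. The lowest and highest Nr4a3 estimates were -0.69 and -0.43, and those of Fos -0.77 and -0.39.

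**Figure D3:**
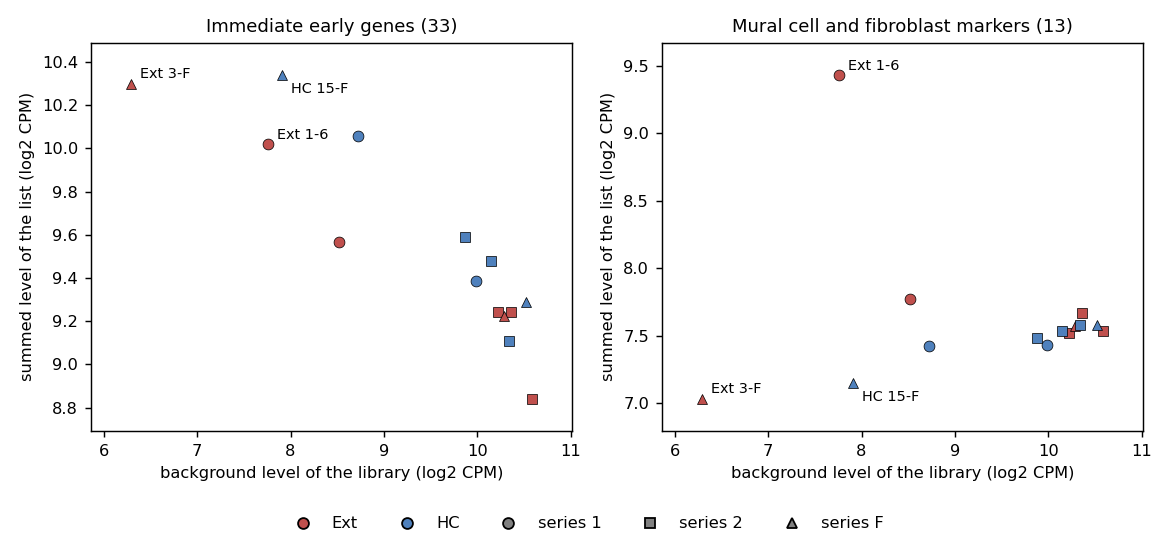
Summed level (log2 CPM, vertical axis) of the immediate early genes (left) and of the mural cell and fibroblast markers (right) against the background level of each library (log2 CPM). Points are libraries, coloured by group and shaped by series. The immediate early sum is highest in 3-F and 15-F, which have the lowest background of their groups, as are the sums of several lists not shown. The vessel wall sum stands at 9.43 in Ext library 1-6 while the other 13 libraries lie between 7.03 and 7.77.

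Vessel wall and blood markers had the highest medians among the cell type lists, and extinction library 1-6 stood far above the others for the vessel wall. Mural cells (smooth muscle and pericytes) and fibroblasts wrap brain vessels and make their contractile and collagen proteins. Of 13 listed markers 11 were positive, with a median of 0.32, 0 called and 0 at an unadjusted p under 0.05 (all genes: 0.123%). Acta2, smooth muscle actin, stood at 2.02 to 5.90 in extinction and 1.86 to 2.75 in HC, with medians of 2.57 and 2.41. Only libraries 1-6 (5.90), 1-5 (3.71) and 2-6 (2.97) were above every HC library. Its log2 fold change was 0.86 ± 0.48 and that of Tagln, a smooth muscle actin-binding protein, 0.79 ± 0.43. Without library 1-6 they were 0.41 ± 0.25 and 0.37 ± 0.23, and the median of the list was -0.01.

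Library 1-6 also stood highest for several of the 10 genes of lowest p among those with a positive estimate. Myl9, a myosin light chain of smooth muscle, was at 0.59 ± 0.28 and stood at 4.35 in library 1-6. Mgp, a matrix protein that inhibits calcification, was at 0.66 ± 0.32 with 3.92 in library 1-6, and Fxyd1, a regulator of the sodium pump, at 0.35 ± 0.16 with 2.92. Without 1-6 the estimates of Myl9 and Mgp were 0.31 ± 0.19 and 0.36 ± 0.22. Blood markers had a median of 0.33 (7 of 8 positive), with Hbb, a globin chain, at 0.72 ± 0.43 and its highest level again in 1-6 (3.95). Without that library Hbb was at 0.51 ± 0.41. The median of the blood list ran from 0.11 (without HC library 1-12) to 0.46 (without HC library 2-10). The summed endothelial markers stood at 9.24 in that library and at 8.61 or below in the others of its group. The part of the amount of vessel tissue in these estimates was not tested, and in bulk tissue fewer cells of a type and less RNA per cell cannot be told apart.

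The other genes of lowest p were scattered over functions. Nupr1, a stress-induced chromatin protein, was 1.51-fold higher (0.59 ± 0.25) and stood at 0.76 to 2.44 in extinction and 0.35 to 1.09 in HC. All 7 extinction libraries were above the HC mean of 0.75, although 3 of them (2-4, 2-5 and 2-6) lay inside the HC range. Slc46a1, the proton-coupled folate transporter, was at 0.35 ± 0.16. Positive estimates were also found for Samd10 (0.38 ± 0.18), Zbed5 (0.37 ± 0.18), Rtbdn (0.34 ± 0.16) and Znf660 (0.27 ± 0.14).

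On the lower side, beside Nr4a3, Fosl2 and Egr2, the rule gave 7 genes. Arhgap11a, a GTPase-activating protein, was 1.32-fold lower (-0.40 ± 0.17), at 1.31 to 1.90 in extinction and 1.54 to 2.10 in HC. All 7 extinction libraries were below the HC mean, and the overlap came from extinction library 11-F and HC library 15-F. Enox2, an NADH oxidase of the cell surface, was at -0.21 ± 0.09. Parp3, a poly(ADP-ribose) polymerase family member of DNA repair, was at -0.32 ± 0.17, with 7 of 7 extinction libraries below the HC mean. Plk4 (-0.33 ± 0.17), the kinase of centriole duplication, Nudt1 (-0.57 ± 0.30), which clears oxidised nucleotides, Tmem202 (-0.36 ± 0.18) and Egfem1 (-0.19 ± 0.10) completed the set. None of the genes named here passed the adjusted test.

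Markers of striatal projection neurons had small positive estimates with wide intervals. Of the 8 D1-type markers 7 were positive with a median of 0.09, of the 8 D2-type markers 7 with a median of 0.13, and of the 12 shared markers 11 with a median of 0.06. Drd1, the D1 dopamine receptor, stood at 5.20 to 7.00 in extinction and 5.33 to 6.89 in HC, a log2 fold change of 0.20 ± 0.27 with a 95% interval of -0.38 to 0.78. Drd2 was at 0.12 ± 0.23 (-0.38 to 0.61) and Ppp1r1b at 0.15 ± 0.30 (-0.49 to 0.78). The opioid peptide precursors Pdyn, of D1-type neurons, and Penk, of D2-type neurons, were at 0.11 ± 0.24 and 0.17 ± 0.30. With the background level as covariate, Drd2, Ppp1r1b, Pdyn and Penk turned negative, between -0.09 and -0.04, while Drd1 was at 0.02, and the list medians were 0.03 (D1), -0.02 (D2) and -0.12 (shared). Without library 3-F the medians of the D2-type and shared markers were -0.0074 and -0.11, and that of the D1-type markers was 0.02 without HC library 1-12. Drd1 ran from 0.06 (without 3-F) to 0.40 (without 15-F). Oprm1, the mu opioid receptor, had a narrower interval, -0.37 to 0.06 around -0.16.

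No glial or neighbouring-tissue marker was called. All 13 astrocyte markers were positive with a median of 0.11, among them Agt, angiotensinogen, at 0.31 ± 0.18 (0.19 without 1-6), but with the background level as covariate only 4 were positive and the median was -0.07, and without library 3-F it was -0.04. Of 14 myelin markers 13 were negative, with a median of only -0.06. With the background level as covariate that median was -0.29, and 12 of 14 were lower at an unadjusted p under 0.05 (all genes: 2.80%), with Mag, a myelin adhesion protein, at -0.36 against -0.11 ± 0.30 without it. Series 2 gave the myelin list a median of -0.29 and series F one of 0.26, so its sign differed between series, and leaving out 1 library moved it from -0.32 (3-F) to 0.10 (HC 1-11). Of 13 markers of cortical glutamatergic neurons 10 were negative with a median of -0.19, about that of the immediate early genes. That median was -0.39 without extinction library 11-F and -0.05 without 3-F. Slc17a7, the vesicular glutamate transporter of cortex, was at -0.60 ± 0.45, with HC library 2-10 highest at 4.58 and extinction library 3-F lowest at 1.38. Neurod2, a transcription factor of such neurons, was at -0.44 ± 0.35. Cck, a peptide of interneurons and cortical cells, was at -0.34 ± 0.25. Without HC library 2-10 these estimates were -0.30 for Slc17a7, -0.295 for Neurod2 and -0.17 for Cck. Slc17a7 was at -0.92 without 1-6, and Neurod2 at -0.78 without 11-F. The part of dissection in these values was not tested.

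Of 17 glucocorticoid receptor and response genes 10 were positive with a median of 0.02, or -0.09 without 3-F. Fkbp5, a chaperone induced by glucocorticoids, had an interval of -0.17 to 0.25 around 0.04, with 5.86 to 6.38 log2 CPM in extinction and 5.96 to 6.32 in HC. Mt1, a metallothionein, was at 0.42 ± 0.26, and at 0.27 without 3-F. Ribosomal protein genes were positive for 76 of 87 (median 0.09), and with the background level the median was -0.10, or -0.08 without 3-F.

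**Figure D4:**
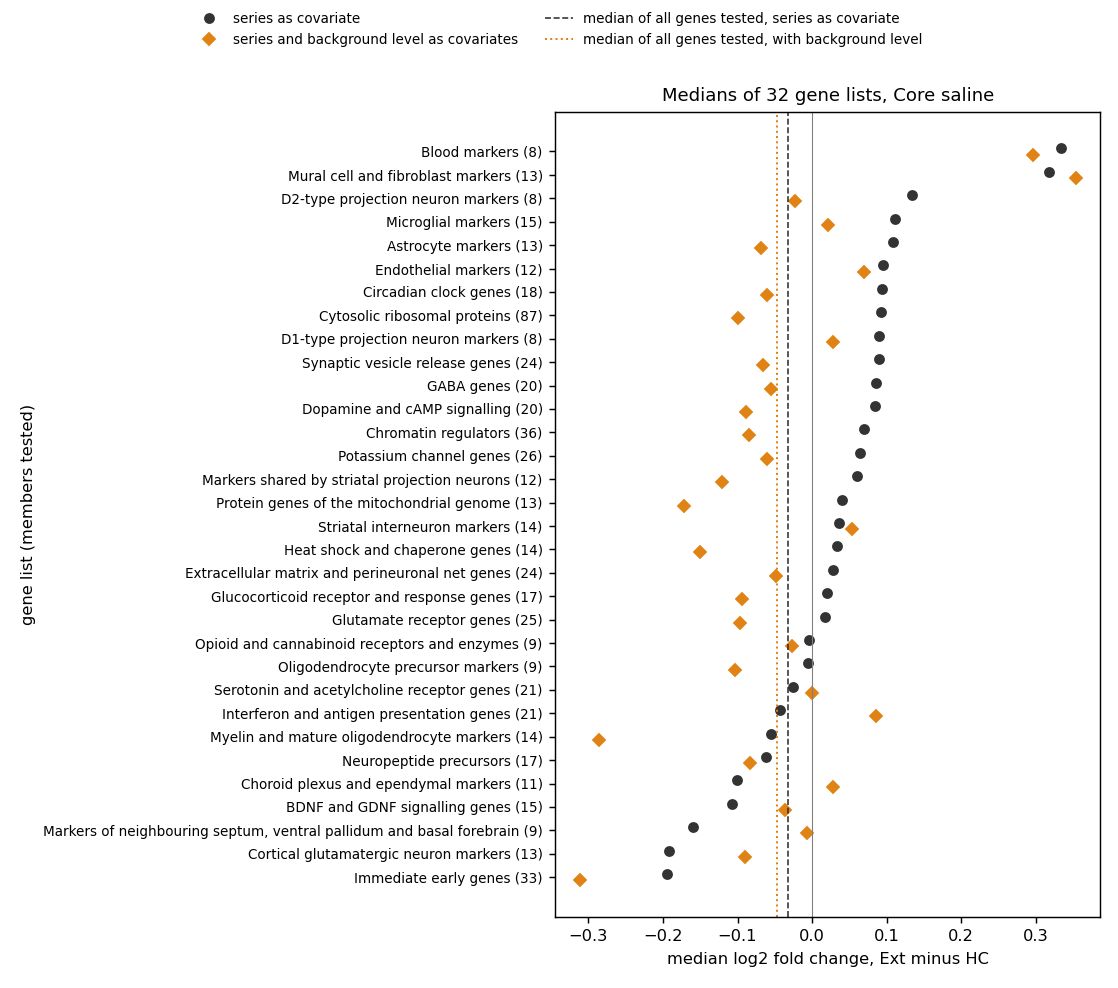
Median log2 fold change (Ext minus HC) of 32 gene lists, with the number of members tested, from the fit with the series as covariate (circles) and with the background level added (diamonds). Dashed and dotted lines are the medians of all genes tested, -0.03 and -0.05. Immediate early genes are lowest in both fits, and the blood and mural lists are highest.

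The same contrast in the cocaine arm of Core was used to ask whether the difference depends on the drug group. Of 31292 genes tested over 28 libraries, 0 differed between saline and cocaine at an adjusted p under 0.05 (0%), and 63 (0.201%) at an unadjusted p under 0.05. In cocaine, 30 of 33 immediate early genes were negative with a median of -0.15, against 18257 of all 31292 genes and a median of -0.03. Of the 33, 5 were at an unadjusted p under 0.05 in either direction, as were 134 of all genes (0.428%). Nr4a3 was at -0.41 ± 0.19 there and at -0.59 ± 0.19 in saline in the same fit, a difference of -0.18 ± 0.27. For Fos the difference was -0.14 ± 0.38 and for Arc -0.26 ± 0.42. The 5 genes with the lowest p for the difference were Igbp1, Ldlrad1, Cald1, Sned1 and Cpne8, each at an adjusted p of 1. Igbp1, a regulatory protein of phosphatase 2A, was at -0.80 ± 0.47 in saline and 1.16 ± 0.47 in cocaine, with group means of 5.601, 6.43, 6.13 and 5.09 for Ext_Sal, HC_Sal, Ext_Coc and HC_Coc.

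The contrast was also set beside that of Shell, the accumbens subregion around the core, in saline. Of 31250 genes tested, 0 differed between Core and Shell in their response (0%), and 360 (1.15%) did so at an unadjusted p under 0.05. In Shell, 29 of 33 immediate early genes were negative with a median of -0.45, against 14252 of all 31250 genes and a median of 0.03. Of the 33, 18 were at an unadjusted p under 0.05 in either direction, as were 573 of all genes (1.83%). Other lists in Shell also had estimates mostly of 1 sign: the shared projection neuron markers were negative for 12 of 12 (median -0.39), the D2-type markers for 7 of 8 (-0.38) and dopamine and cAMP signalling genes for 19 of 20 (-0.38). Heat shock genes (14 of 14) and mitochondrially encoded genes (13 of 13) were negative too, and the mural and fibroblast markers were positive for 13 of 13 (0.59). Their part in the Shell values was not tested. Arc was at -1.08 ± 0.28 in Shell and -0.48 ± 0.28 in Core in that fit. Fos was at -0.87 ± 0.22 and -0.54 ± 0.22, and Nr4a3 at -0.74 ± 0.18 and -0.57 ± 0.18. The differences, Core minus Shell, were 0.60 ± 0.39 for Arc, 0.33 ± 0.31 for Fos and 0.16 ± 0.25 for Nr4a3. Of 33 members 27 had a positive difference (median 0.33, against -0.08 over all genes) and 0 were at an unadjusted p under 0.05. A smaller difference in Core than in Shell was thus not shown. Other lists also had mostly positive differences: dopamine and cAMP signalling genes for 18 of 20 (0.50) and shared projection neuron markers for 12 of 12 (0.44). Mitochondrially encoded genes (13 of 13, 0.34) and ribosomal protein genes (81 of 87, 0.28) did too. Negative medians were found for the mural and fibroblast (-0.24) and endothelial (-0.10) markers, among others. Drd1 differed by 0.70 ± 0.33 (edgeR, adjusted p = 0.748), from -0.52 ± 0.23 in Shell. The 5 genes of lowest p were St8sia5, Mitd1, Gpaa1, Tlcd5 and Lrtm2, with differences of 0.42 to 0.62 and the same adjusted p of 0.748. Core and Shell libraries may come from the same animals, which this fit does not model.

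Within series 1 alone (2 against 2) the contrast called 1 of 26209 genes (0.00382%), LOC120094955. Its log2 fold change was 3.19 there and 1.07 over all 14 libraries, where it was not called. Tested within series 2 alone (3 against 3), the contrast called 28 of 29458 genes (0.0951%), 27 higher and 1 lower, and 14 of these formed a block of neighbouring genes. Of the 28, 22 matched RefSeq, and 14 of those lie within a stretch of 33 neighbouring genes in its annotation (GRCr8), each no more than 15 positions from the next. Of the 14, 8 carry the name of the Spetex2 family, a rodent gene family known from testis, and 5 are pseudogenes. Reads of such copies could have been divided between them by the counting, so they are given as a sum. In series 2 the 14 genes summed to 109, 133 and 148 CPM (linear scale) in the extinction libraries and to 26.0, 30.5 and 32.8 in the HC libraries. In the other Core libraries the order was not kept: HC library 7-F had 159 and extinction library 3-F had 12.9. Their background levels differed, at 10.52 in 7-F and 6.29 in 3-F. The other Core libraries of background under 9 (1-5, 1-6, 1-11 and 15-F) had 29.9, 31.6, 32.9 and 39.3 CPM. Libraries 1-12 and 11-F, of background 9.99 and 10.28, had 70.8 and 104.6. HC libraries 2-10, 2-11 and 2-12 were low at background levels of 9.87, 10.34 and 10.14. Whether background plays a part here was not tested. The 14 genes were chosen for this difference, so the values are a description.

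The Shell libraries with the same numbers as the 3 HC libraries, 4-10, 4-11 and 4-12, stood at 34.3, 27.9 and 29.0 CPM, while the Shell extinction libraries 4-4, 4-5 and 4-6 had 112, 99.3 and 146. In LOC120094610, a protein-coding gene of the block, the 3 HC libraries of Core held 1, 0 and 2 counts and those of Shell 1, 3 and 1. The extinction libraries of series 2 held 61 to 87. The Core HC libraries outside series 2 held 21 to 98 counts, and among the other Core extinction libraries 3-F held 1, 1-6 held 10, 1-5 held 18 and 11-F held 69. Low counts were thus found in both groups, but at unlike background levels. Extinction libraries 3-F, 1-6 and 1-5 had levels of 6.29, 7.76 and 8.51, and the 3 Core HC libraries of series 2 had 9.87 to 10.34. Over all 14 libraries LOC120094610 was not called (edgeR, log2 fold change 1.104, unadjusted p = 0.366).

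**Figure D5:**
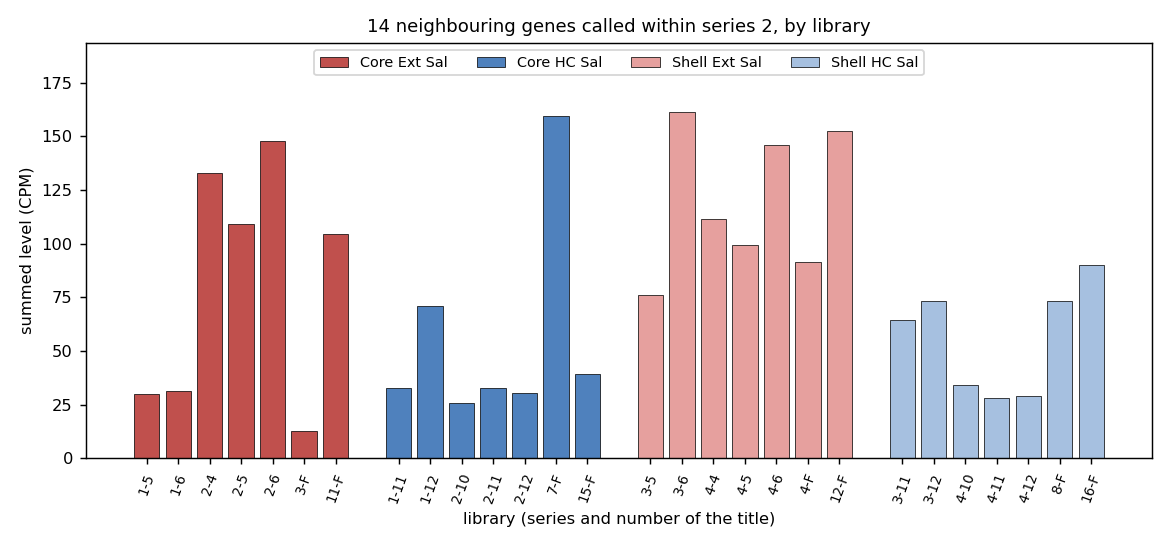
Summed level (CPM, linear axis from 0) of the 14 neighbouring genes called within series 2, for each saline library of Core and Shell, coloured by subregion and group. The HC libraries 2-10, 2-11 and 2-12 and their Shell counterparts 4-10, 4-11 and 4-12 lie between 26.0 and 34.3, and HC library 7-F at 159.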

How the data were processed

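RNA from the nucleus accumbens was made into stranded total RNA libraries, per the labels' protocols. The authors deposited a table of raw counts per gene and a table of FPKM values; featureCounts and the build mRatBN7.2 are named in the submitters' processing notes. The aligner, annotation and strand setting are not given in the sources at hand, so reads of overlapping or antisense genes cannot be told apart. The deposited FPKM values were not used. The deposited counts of 41919 genes were analysed with edgeR 4.0.16 (filterByExpr, TMM, quasi-likelihood F test, two-sided, Benjamini-Hochberg threshold 0.05) in R 4.3.3, with limma 3.58.1. The 7 Ext_Sal and 7 HC_Sal libraries of Core were fitted with the series as covariate, and 28 libraries for each interaction, with the series, or the series within subregion. Levels are log2 CPM with a prior count of 2. Single values per library were compared by an exact permutation test. No pair of libraries was identical (highest correlation 0.9898). DESeq2 1.42.0, 2 surrogate variables from sva 3.50.0, other filters, covariates and subsets of libraries, and leaving out each library were the alternatives. The main fit was tested on simulated data with the same spread for every gene and no background difference between libraries. That test therefore does not cover the spread in background of the real libraries.

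Genes were named by this rule: up to 15 of the largest changes in each direction among those called with a mean log2 CPM of at least 1 or, where fewer than 10 passed, the genes of lowest p up to 10, then the 2 members of lowest p of each of the 32 gene lists and a set of key genes, and 5 genes of lowest p for each interaction. Tiparp, Jun, LOC120094955, LOC120094610 and the block of neighbouring genes were named after their values were seen. 1 gene that the rule names is not reported here. The members and lists were chosen with earlier results of these data known.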

Additional observations from a re-analysis of the deposited data

Results flagged for a closer look

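Of 132 sets of 7 values per group, 15 had an extreme library whose distance to its nearest neighbour was, as a share of the group's range, above Dixon's 95% limit, where chance alone gives about 1 in 20 sets. These flags are not independent, because the sets share libraries and some share genes. Library 1-6 of Ext_Sal accounted for 5 of them. It stood at 4.35 log2 CPM for Myl9 (nearest 2.94), 3.92 for Mgp (2.49) and 7.38 for Vwf, the von Willebrand factor of endothelium (6.22). Its summed endothelial markers were at 9.24 (8.61) and its summed mural cell and fibroblast markers at 9.43 (7.77).

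Library 3-F of Ext_Sal, which had the lowest background level, was lowest in another 5. It stood at -1.91 for Bdnf (nearest 1.23), -1.56 for Neurod2 (0.21) and 0.90 for Cck (1.68). Its summed choroid plexus markers were at 3.46 (5.10) and its first principal component at -131.3 (-37.36).

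Library 15-F of HC_Sal stood at 9.11 for Penk (nearest 8.12) and at 8.75 for the summed D1-type markers (8.46), both highest in its group. Its summed mural cell and fibroblast markers were lowest at 7.15 (7.42), and 3.30% of its counts were mitochondrial (2.20%). Library 1-11 of HC_Sal was lowest for Rtbdn at 0.82 (1.21).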

How the results depend on the processing

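No gene was called under DESeq2's size factors, DESeq2's test, a fit without the filter on low counts, one without the series, all 42 or 41 Core libraries, the numbered series, series F, the background covariate, 2 surrogate variables, libraries of background over 9, or without any 1 library (22 to 382 genes at an unadjusted p under 0.05, the latter without 11-F of Ext_Sal). Within series 1 alone 1 gene was called, within series 2 alone 28, and in the numbered series with the background covariate 2, the last setting chosen after seeing the data, as were the libraries of background over 9 and the 41 Core libraries with that covariate. For these and the values below the cause was not tested.

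Single genes changed sign as follows (log2 fold changes). In series 1: Egr1 0.25, Tiparp 0.0318, Jun 0.128. In series 2: Bdnf 0.176, Tagln -0.0351, Drd1 -0.282, Drd2 -0.0814, Ppp1r1b -0.438, Pdyn -0.327, Penk -0.347, Oprm1 0.0678, Fkbp5 -0.0512. In series F: Arc 0.0263, Jun 0.206, Acta2 -0.0427, Mag 0.259, Hbb -0.0736. With the background covariate: Drd2 -0.0808, Ppp1r1b -0.0892, Pdyn -0.0427, Penk -0.051, Fkbp5 -0.00434. With 2 surrogate variables: Drd2 -0.0715, Ppp1r1b -0.0598, Penk -0.00925. In the numbered series with the background covariate: Drd1 -0.00127, Drd2 -0.0205, Ppp1r1b -0.151, Pdyn -0.0898, Penk -0.0473, Fkbp5 -0.00708. In libraries of background over 9: Bdnf 0.0332, Drd1 -0.0711, Drd2 -0.067, Ppp1r1b -0.283, Pdyn -0.109, Penk -0.222, Oprm1 0.0182, Fkbp5 -0.0117. In 41 Core libraries with the background covariate: Drd2 -0.0746, Ppp1r1b -0.0915, Pdyn -0.0628, Penk -0.0438, Fkbp5 -0.0228. Leaving out 1 library at a time gave ranges across 0 for Mag (-0.397 to 0.0524), Drd2 (-0.0816 to 0.241), Ppp1r1b (-0.0723 to 0.287), Pdyn (-0.021 to 0.285), Penk (-0.0211 to 0.355) and Fkbp5 (-0.00429 to 0.0816).

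The difference in background level between the groups ran from -0.78 to -0.02 (without 3-F) and did not pass the threshold. No paired analysis was possible because the Ext_Sal and HC_Sal libraries of Core share 0 replicate numbers within a series. For Core minus Shell, 0 genes were called with the replicate block and 0 without it (numbered libraries only). Series of 2 libraries a group, and the spread in background between libraries, limit what could be detected.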

Other observations

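Shroom2, a regulator of the actin cytoskeleton named after its values were seen, took 2 separate ranges of level in these libraries. It was among the 28 genes called within series 2, with a log2 fold change of 1.735 there and 0.34 over all 14 libraries. In Core saline it stood at 293.6 to 515.7 CPM in 6 libraries (Ext_Sal 2-4, 2-5, 2-6 and 3-F, and HC_Sal 1-12 and 15-F). The other 8 had 58.06 to 137.2 CPM, of which HC library 2-11 had 137.2 and the rest 70.81 or below. In Shell saline, library 4-F of Ext_Sal had 362 CPM and the other 13 libraries 47.88 to 63.46 CPM. In Core the high libraries belonged to both groups. Igbp1, named above for its difference between drug groups, ran from 22.76 to 161.9 CPM over the Core saline libraries, with the lowest value in HC library 15-F and the highest in extinction library 11-F.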
